A study of Mus musculus with 13 samples.

Results

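Matrix metalloproteinases (Mmp genes), ADAMTS proteases (Adamts genes) and the tissue inhibitors of metalloproteinases (Timp genes) set how extracellular matrix is cut and remodelled. The genes described here are those whose name on the array begins with Mmp or Adamts followed by a digit, or is Timp1, Timp2, Timp3 or Timp4. That rule found 42 genes on 73 probes, 21 Mmp, 4 Timp and 17 Adamts genes, and it used no measured value. Each gene is represented by its brightest probe. Of the 42 genes, 36 had a probe well above background on at least 3 of the 13 arrays and were tested among 20392 genes in all. Well above background is the scanner software's own call that a spot's signal exceeds its local background.

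The 6 genes under that limit were Mmp1a, Mmp16 (a membrane-type protease), Mmp20 (enamelysin, known from tooth enamel), Mmp21, Adamts13 (the protease that cleaves von Willebrand factor) and Adamts19. Their brightest probes were well above background on 0 to 2 arrays.

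The livers came from male C57BL/6 mice that had eaten a high-fat diet of western type over 5 months. The 3 genotypes of the deacetylase SIRT1 were TEKI, carrying an allele with glutamate in place of threonine 522 (3 mice), TAKI, carrying an allele with alanine there (5 mice), and WT, with the unaltered protein (5 mice). All 13 mice had the same diet, so no lean liver enters any comparison, and the sources used here leave the zygosity of the alleles unstated. Each mouse gave 1 array of Cy3-labelled liver RNA, so the replicates are separate animals.

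A level below is log2 of a probe's processed signal minus the 75th percentile of its array, so 0 is that array's 75th percentile. Levels of different probes are not compared with each other, because probes differ in how well they hybridise. A difference is the mean level of the first-named genotype minus that of the second, tested with limma, with p-values adjusted by the Benjamini-Hochberg method over all 20392 genes. A gene is called where the adjusted p is under 0.05.

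Mmp proteins are zinc endopeptidases made as inactive precursors. Some are secreted and some are held at the cell surface, where Mmp14 together with Timp2 activates pro-Mmp2. Adamts proteases cut procollagens, aggrecan, versican and other matrix glycoproteins. Timp proteins bind the active site of Mmp enzymes and block it, and Timp3 also inhibits several Adamts and ADAM proteases. In the liver, stellate cells, macrophages, endothelial cells and neutrophils are the known main sources of these enzymes, and Timp1 is best known for its induction in fibrosis.

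Of the 42 genes, 8 lie in a cluster on mouse chromosome 9. The probes of Mmp13, Mmp12, Mmp3, Mmp1a, Mmp10, Mmp8, Mmp20 and Mmp7 lie in that order between positions 7280046 and 7695493 of build mm7, a span of 415448 bases. Promoter sequences of RefSeq (build GRCm38.p6, 250 bases before to 50 after the start of transcription) were found for 28 of the 42 genes. The letters TGANTCA, the core of an AP-1 type element, read the same on both strands and were searched as the 1 motif. They occurred in the promoters of 7 of the 8 clustered genes, all but Mmp8, and in 0 of the 20 other member genes listed there. Of all 27025 RefSeq genes with a promoter, 8.97% had the motif there. The windows below, with 10 bases on either side of the motif (in capitals), are shown because they are what these 7 neighbours share that their names did not choose. All lie on the plus strand of GRCm38.p6, before the start site.
Mmp13, chr9:7272469-7272495: cccaaagtggTGACTCAtcactatcat
Mmp12, chr9:7347320-7347346: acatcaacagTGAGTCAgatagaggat
Mmp3, chr9:7445766-7445792: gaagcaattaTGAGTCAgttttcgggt
Mmp1a, chr9:7464058-7464084: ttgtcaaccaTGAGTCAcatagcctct
Mmp10, chr9:7502269-7502295: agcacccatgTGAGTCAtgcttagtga
Mmp20, chr9:7628126-7628152: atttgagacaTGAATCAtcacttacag
Mmp7, chr9:7692017-7692043: agtgtgcaaaTGAGTCAcctatttcca

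The motif began 35 bases before the start of Mmp13, 44 before Mmp12, 46 before Mmp3, 63 before Mmp10 and Mmp7, 73 before Mmp1a and 95 before Mmp20. Mmp13 has TGACTCA, Mmp20 has TGAATCA and the rest have TGAGTCA. A match in letters is not a measurement of binding.

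The 60 bases on the array are shown, as the files give them and with positions in mm7, for the member of widest range, for Mmp9, whose spots are compared below, and for a gene whose probes disagreed. The Mmp12 probe lies on the plus strand of chr9:7352125-7352640, and its 60 bases cover 516 bases of genome, so it matches the genome in more than 1 piece. The Mmp9 probe lies at chr2:164695457-164695516 on the plus strand. The 2 Adamts20 probes shown lie on the minus strand of chromosome 15 and gave opposite differences (below).
Mmp12: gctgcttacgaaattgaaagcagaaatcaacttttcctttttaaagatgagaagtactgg
Mmp9: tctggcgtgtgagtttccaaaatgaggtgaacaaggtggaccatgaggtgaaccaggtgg
Adamts20, chr15:94382289-94382348: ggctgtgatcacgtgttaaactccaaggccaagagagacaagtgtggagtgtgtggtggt
Adamts20, chr15:94365345-94365404: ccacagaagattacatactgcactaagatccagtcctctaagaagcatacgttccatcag

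Features of the arrays touch several results. TEKI replicate 1 had 86.8% of its spots well above background, against 60.5% to 73.1% on the other 12 arrays, and 89 non-uniform spots against 1 to 6. The tested genes were split by mean level into 4 equal classes, of which class 1 is the dimmest. In class 1 it lay a median of 1.61 above the mean of the other arrays, and a median of 1.79 above it over the 17 member genes of that class. The 5 TAKI arrays filled 2 slides that held no other genotype, so genotype and slide cannot be told apart in their comparisons. With slide as a random block Mmp17 gave 0.89 in TAKI minus WT (adjusted p = 0.0137) and Timp4 2.04 in TEKI minus TAKI (adjusted p = 0.0177). The 3 TEKI arrays shared a slide with WT replicate 5. Calls also followed the position of a spot: in TAKI minus WT, 376 of the 383 genes called higher had their probe in rows 1 to 266 of the 532 rows, and 179 of the 181 called lower had it in rows 267 to 532. The row of each called member is therefore given. As a check of the tissue, the hepatocyte marker Alb was at 9.12 or above on all 13 arrays. Sirt1 itself was at -0.06 to 0.62 on all 13 arrays, a level that says nothing of the altered residue.

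Few of these genes were called between genotypes, and a gene that was not called may still differ. In TAKI minus WT, 1 of 36 members was called higher (Mmp17) and 0 lower, or 2.78%, where 2.77% of all 20392 tested genes were called, 1.88% higher and 0.888% lower. In TEKI minus WT, 0 of 36 members were called by limma, where 0.0049% of all genes were; 6 members had an unadjusted p under 0.05, which is 16.7% of them against 11.4% of all genes, all higher where 10.2% of all genes were higher and 1.27% lower. In TEKI minus TAKI, 1 of 36 was called higher (Timp4) and 0 lower, or 2.78% against 3.4% of all genes, 2.46% higher and 0.946% lower. Unadjusted p was under 0.05 for 5 members in TAKI minus WT (13.9%, against 14.4% of all genes), 4 higher and 1 lower where 9.37% and 5.07% of all genes were, and for 3 in TEKI minus TAKI (8.33%, against 11.9%), all higher where 8.18% of all genes were higher and 3.73% lower. All of these shares are near the share over all genes.

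The median member difference was -0.04 in TAKI minus WT, where it was 0.00 over all genes, with 17 of 36 differences above 0, where 50.6% of all genes were. It was 0.11 in TEKI minus WT, where it was 0.08 over all genes, with 23 of 36 above 0, where 63.4% of all genes were. It was 0.08 in TEKI minus TAKI, where it was 0.07 over all genes, also with 23 of 36 above 0, where 61.1% of all genes were. Without TEKI replicate 1 the 2 medians that involve TEKI came to -0.01 against WT, with 18 above 0, and -0.04 against TAKI, with 15 above 0. In that fit the calls were 4 in TAKI minus WT (Mmp17, Mmp10, Timp4 and Adamts20), 0 in TEKI minus WT and 3 in TEKI minus TAKI (Timp4, Mmp10 and Adamts20). Calls over all 20392 genes rose there too, from 564 to 1295 in TAKI minus WT and from 694 to 1070 in TEKI minus TAKI.

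The groups did not overlap for 2 members in TAKI minus WT, Mmp17 and Mmp10 (5.56%, against 7.38% of all genes, 5.63% above and 1.75% below). In TEKI minus WT this held for Mmp17 and Adamts9 (5.56%, against 3.65%, 2.57% above and 1.08% below), and in TEKI minus TAKI for Timp4, Mmp9 and Adamts1 (8.33%, against 8.23%, 5.46% above and 2.77% below). Adamts1 was the single one of these with the first-named genotype lower.

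**Figure D1:**
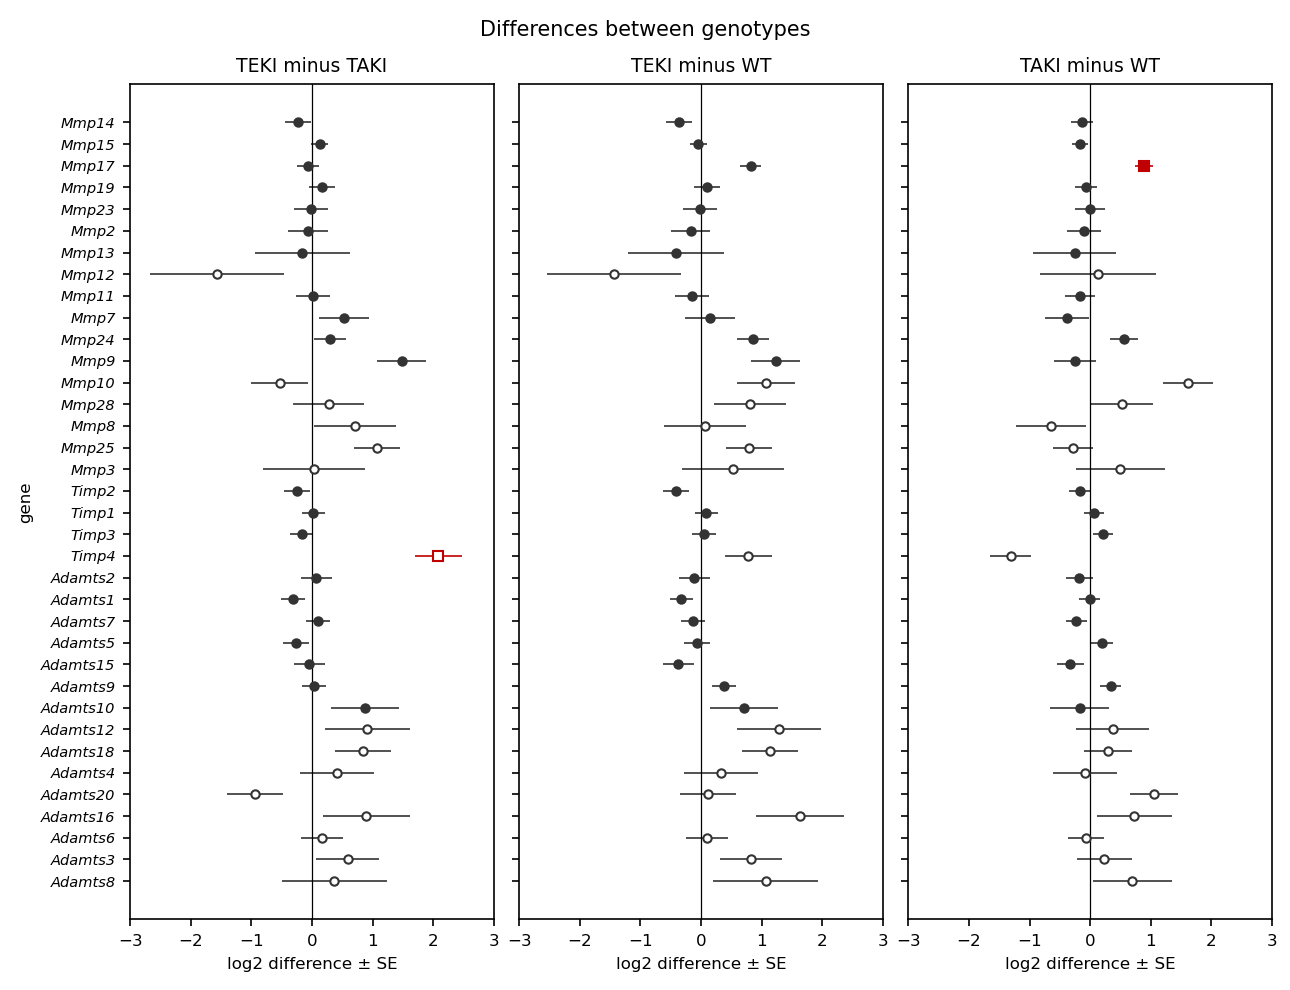
Log2 difference with its standard error for each of the 36 tested genes, by comparison, with TEKI minus TAKI on the left, TEKI minus WT in the middle and TAKI minus WT on the right. Red squares mark the 2 called genes, Timp4 at 2.09 and Mmp17 at 0.89, and open symbols mark genes not above background on all 13 arrays, which have the wide bars.

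Of the 4 inhibitors, Timp1, Timp2 and Timp3 were well above background on all 13 arrays and did not pass the test in any comparison. Timp1, the inhibitor most often raised in fibrotic liver, was at 1.27, 1.52 and 1.40 in TEKI livers, 0.98, 1.79, 1.22, 1.59 and 1.30 in TAKI livers, and 1.70, 1.25, 1.22, 1.36 and 1.01 in WT livers (replicates in the order of their numbers, here and below). The 3 groups overlapped, with TAKI replicate 2 highest and TAKI replicate 1 lowest. The difference was 0.09 (95% interval -0.32 to 0.50, adjusted p = 0.907) in TEKI minus WT and 0.07 (95% interval -0.29 to 0.42, adjusted p = 0.911) in TAKI minus WT. In TEKI minus TAKI it was 0.02 (95% interval -0.39 to 0.44, adjusted p = 0.98). Dimmer Timp1 probes gave 0.29 and -0.26 in TEKI minus WT and 0.04 and -0.33 in TAKI minus WT.

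Timp2, which inhibits Mmp2 and also takes part in its activation, was at 2.08, 2.55 and 1.87 in TEKI livers, 1.90, 2.96, 2.33, 2.58 and 2.32 in TAKI livers, and 2.55, 2.56, 2.76, 2.53 and 2.50 in WT livers. TEKI replicate 3, TAKI replicate 1 and TEKI replicate 1 were lowest and TAKI replicate 2 highest, and all 3 groups overlapped. The difference was -0.41 (95% interval -0.88 to 0.05, adjusted p = 0.469) in TEKI minus WT, -0.16 (95% interval -0.56 to 0.24, adjusted p = 0.771) in TAKI minus WT and -0.25 (95% interval -0.71 to 0.21, adjusted p = 0.71) in TEKI minus TAKI.

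Timp3, which binds to the matrix, was at 0.89, 1.13 and 0.59 in TEKI livers, 0.59, 1.10, 0.94, 1.45 and 1.12 in TAKI livers, and 0.63, 0.75, 1.17, 0.77 and 0.79 in WT livers. All 3 groups overlapped. The difference was 0.05 (95% interval -0.37 to 0.47, adjusted p = 0.957) in TEKI minus WT, 0.22 (95% interval -0.15 to 0.58, adjusted p = 0.639) in TAKI minus WT and -0.17 (95% interval -0.59 to 0.25, adjusted p = 0.796) in TEKI minus TAKI.

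Timp4, the fourth inhibitor and known mainly from heart and fat, was the inhibitor that differed. It was at -3.12, -3.97 and -3.68 in TEKI livers, -5.32, -5.02, -5.63, -6.41 and -6.0 in TAKI livers, and -4.71, -4.56, -5.14, -3.85 and -3.58 in WT livers, and each of the 3 TEKI livers was above each of the 5 TAKI livers. Its probe was well above background on 3 of 3 TEKI arrays, on 0 of 5 TAKI arrays and on 4 of 5 WT arrays. TEKI livers averaged -3.59 ± 0.43 and TAKI livers -5.68 ± 0.55 (SD, n = 3 and 5), a difference of 2.09 (SE 0.39, adjusted p = 0.0109). Because no TAKI array measured it above background, only a bound can be given, at least 4.18-fold higher in TEKI at this scaling. Each TAKI array was set to the higher of the probe's own signal and the array's lowest signal called well above background. The bound leaves position on the array in. With another background correction (normexp) the difference was 1.12 (adjusted p = 0.00217). In that setting 4124 of 20382 genes were called in TEKI minus TAKI, 3972 of them higher. Without TEKI replicate 1 the difference was 1.85 (adjusted p = 0.0314).

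Against WT, at -4.37 ± 0.64 (SD, n = 5), neither knock-in passed the test. Timp4 differed by 0.78 (SE 0.39, adjusted p = 0.459) in TEKI minus WT. In TAKI minus WT it differed by -1.31 (SE 0.34, unadjusted p = 0.00215, adjusted p = 0.064), with a bound of 2.44-fold lower in TAKI at this scaling. The WT mean behind that bound includes an array not above background. In the fit without TEKI replicate 1, where more genes were called in all, Timp4 passed, at -1.31 (adjusted p = 0.0372). The Timp4 probe is in row 496, among the rows where nearly all genes called lower in TAKI lay. The 363 other genes of level class 1 within 20 rows of it had median differences of 1.10 in TEKI minus TAKI and -0.28 in TAKI minus WT. With such medians taken out by position and level, Timp4 differed by 0.96 in TEKI minus TAKI (adjusted p = 0.151) and was no longer called. In TAKI minus WT it then differed by -0.94 (adjusted p = 0.0998). The fold bounds given above do not take position or the spread between livers into account.

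**Figure D2:**
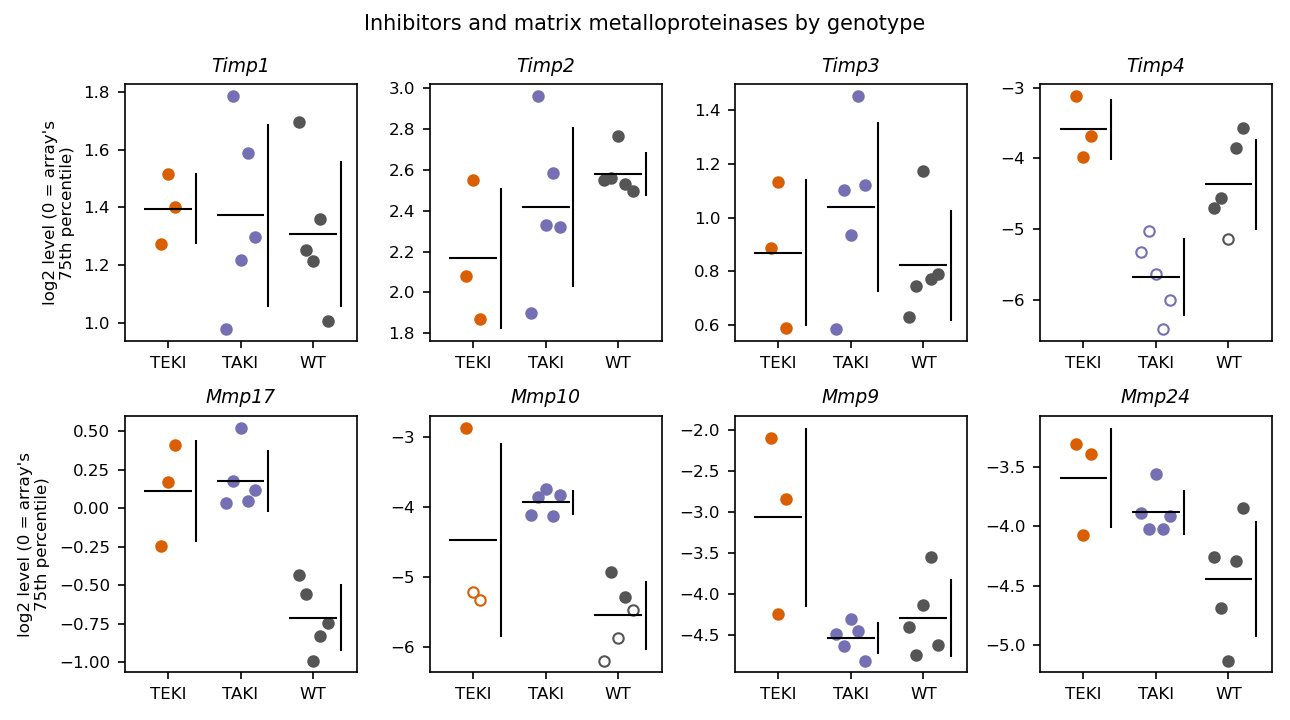
Log2 level (0 is the 75th percentile of the array) of the 4 inhibitors and of Mmp17, Mmp10, Mmp9 and Mmp24 in each liver, with TEKI, TAKI and WT from left to right; each panel has its own scale. Filled circles were well above background and open circles were not, horizontal lines are group means and vertical lines span 1 SD either side. All 5 TAKI livers are open for Timp4, and all 5 WT livers lie below every knock-in liver for Mmp17.

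Among the proteases held at the cell surface, Mmp17 was the called gene. Mmp17 (MT4-MMP) is anchored to the membrane by a lipid. It was at -0.25, 0.17 and 0.41 in TEKI livers, 0.03, 0.17, 0.52, 0.04 and 0.12 in TAKI livers, and -0.44, -0.55, -0.99, -0.83 and -0.74 in WT livers. All 8 knock-in livers were above all 5 WT livers, with TEKI replicate 1 the lowest of the 8 and TAKI replicate 3 the highest. TAKI livers averaged 0.18 ± 0.20 and WT livers -0.71 ± 0.22 (SD, n = 5 each), a difference of 0.89 (SE 0.15, adjusted p = 0.00983), or 1.85-fold. TEKI livers averaged 0.11 ± 0.33 (SD, n = 3), and the difference from WT was of like size, 0.82 (SE 0.18, unadjusted p = 0.00056, adjusted p = 0.316), but did not pass the test. Without TEKI replicate 1 it was 1.0 (adjusted p = 0.223). TEKI minus TAKI was -0.07 (95% interval -0.45 to 0.32, adjusted p = 0.922).

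The Mmp17 probe was above background on all 13 arrays and lay in row 211, among the rows that held nearly all genes called higher in TAKI. The 402 other genes of level class 3 within 20 rows of it had a median difference of -0.03 in TAKI minus WT, and with position taken out Mmp17 still differed by 0.93 (adjusted p = 0.00771). In TEKI minus WT the difference was 0.85 with slide as a block, where it rests on WT replicate 5 alone (adjusted p = 0.651). The second Mmp17 probe, in row 136 and also above background on all 13 arrays, went against the first in TAKI minus WT. It was at -3.35, -3.61 and -3.98 in TEKI livers, -4.15, -3.43, -4.29, -4.33 and -4.13 in TAKI livers, and -3.27, -4.04, -3.23, -3.89 and -4.10 in WT livers, and it differed by -0.36 (SE 0.23) in TAKI minus WT and 0.06 (SE 0.27) in TEKI minus WT. With the 2 probes averaged, the TAKI minus WT difference was 0.26 (adjusted p = 0.411). Scaled to the medians of the arrays, it was 0.73 (adjusted p = 0.167).

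Mmp14 (MT1-MMP), the collagenase that activates pro-Mmp2, gave the brightest member probe. It was at 3.19, 3.27 and 2.74 in TEKI livers, 3.14, 3.67, 3.02, 3.46 and 3.17 in TAKI livers, and 3.74, 3.66, 3.24, 3.58 and 2.91 in WT livers. The groups overlapped, with TEKI replicate 3 lowest and WT replicate 1 highest. The difference was -0.36 (95% interval -0.83 to 0.11, adjusted p = 0.526) in TEKI minus WT and -0.13 (95% interval -0.54 to 0.28, adjusted p = 0.826) in TAKI minus WT. A second Mmp14 probe differed by -0.06 and -0.20 in the same comparisons.

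Mmp15 (MT2-MMP), a relative of Mmp14, was the steadiest member, with a range of 0.63 over 13 livers. It was at 0.28, 0.42 and 0.63 in TEKI livers, 0.46, 0.48, 0.11, 0.20 and 0.35 in TAKI livers, and 0.15, 0.60, 0.73, 0.39 and 0.56 in WT livers. No group stood apart, and the difference was -0.04 (95% interval -0.36 to 0.28, adjusted p = 0.948) in TEKI minus WT and -0.17 (95% interval -0.44 to 0.11, adjusted p = 0.636) in TAKI minus WT.

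Mmp24 (MT5-MMP), known from neurons, was at -3.30, -4.07 and -3.40 in TEKI livers, -3.89, -4.03, -3.56, -4.02 and -3.91 in TAKI livers, and -4.26, -4.69, -5.13, -4.29 and -3.84 in WT livers. WT replicates 1 to 4 were below every knock-in liver, but WT replicate 5 was above 4 of the 5 TAKI livers and 1 of the 3 TEKI livers. The difference was 0.85 (SE 0.27, unadjusted p = 0.00761, adjusted p = 0.397) in TEKI minus WT and 0.56 (SE 0.23, unadjusted p = 0.0315, adjusted p = 0.277) in TAKI minus WT, so neither passed. The first was 0.71 (adjusted p = 0.903) without TEKI replicate 1. Its second probe gave -0.10 and -0.49 in these comparisons, the opposite direction to the first. Genes of level class 1 within 20 rows of the first probe had median differences of 0.83 in TEKI minus WT and 0.25 in TAKI minus WT.

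Mmp25 (MT6-MMP), a lipid-anchored protease of neutrophils, was well above background on 4 arrays only. It was at -3.43, -5.56 and -4.44 in TEKI livers, -5.33, -5.33, -5.31, -5.85 and -5.93 in TAKI livers, and -5.27, -5.32, -5.70, -4.84 and -5.19 in WT livers. TEKI replicate 1 was highest. The difference was 1.07 (SE 0.38, unadjusted p = 0.0147, adjusted p = 0.225) in TEKI minus TAKI, and 0.55 (adjusted p = 0.58) without TEKI replicate 1. With position taken out it was -0.16 (adjusted p = 0.858). Mmp23, which is shed from the membrane, differed by -0.02 in TEKI minus WT and 0.00 in TAKI minus WT.

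The gelatinases cut denatured collagen and basement membrane collagen. Mmp2, made mainly by stellate cells and fibroblasts, averaged -2.04 ± 0.59 in TEKI livers, -1.97 ± 0.62 in TAKI livers and -1.87 ± 0.13 in WT livers (SD, n = 3, 5 and 5). It differed by -0.17 in TEKI minus WT and -0.10 in TAKI minus WT. Mmp9, made by neutrophils and macrophages, was at -2.10, -4.25 and -2.84 in TEKI livers, -4.49, -4.63, -4.30, -4.46 and -4.82 in TAKI livers, and -4.41, -4.75, -4.13, -3.54 and -4.63 in WT livers. TEKI replicates 1 and 3 were the highest of the 13 livers, and TEKI replicate 2 fell within the WT range. All 3 TEKI livers were above all 5 TAKI livers, by a difference of 1.48 (SE 0.40, unadjusted p = 0.00318, adjusted p = 0.079). The difference was 1.23 (SE 0.40, unadjusted p = 0.00991, adjusted p = 0.397) in TEKI minus WT and -0.25 in TAKI minus WT. Without TEKI replicate 1 it was 1.0 (adjusted p = 0.232) in TEKI minus TAKI and 0.75 (adjusted p = 0.903) in TEKI minus WT. Without TEKI replicate 2 it was 2.07 (adjusted p = 0.0062) in TEKI minus TAKI and 1.82 (adjusted p = 0.0343) in TEKI minus WT.

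This Mmp9 probe lies in row 9, at the edge of the array, where the 228 other genes of level class 1 within 20 rows had a median difference of -0.25 in TEKI minus TAKI. With position taken out Mmp9 was higher in TEKI than in TAKI by 1.89 (adjusted p = 0.00347), the TEKI minus WT difference was 0.82 (adjusted p = 0.419), and Mmp9 was called lower in TAKI minus WT, at -1.07 (adjusted p = 0.036). A second, dimmer Mmp9 probe is printed on 10 spots spread over rows 70 to 528. Its spots gave TEKI minus WT differences of 0.17 to 1.05, all above 0, and TAKI minus WT differences of -0.66 to 0.09, of which 9 of 10 were below 0. These spots are copies on the same arrays, not separate livers. Averaged over spots, the level was -3.21, -5.31 and -6.07 in TEKI livers, -5.89 to -5.55 in TAKI livers and -6.42 to -4.65 in WT livers. TEKI replicate 1 was the highest of the 13 livers, and TEKI replicates 2 and 3 lay within the WT range. TEKI replicate 3, high by the first probe, lay below every TAKI liver by this one. The second probe was well above background on 4 of 13 arrays, and its mean over spots differed by 0.84 (SE 0.53) in TEKI minus TAKI and 0.67 (SE 0.53) in TEKI minus WT.

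Neutrophils carry Mmp9, Mmp8 and Mmp25. Of 11 tested neutrophil markers, 0 were called in any comparison, and 1 had an unadjusted p under 0.05 in each, higher each time. Their mean level relative to the WT mean ran from -0.36 to 0.97 in TEKI livers, -0.69 to 0.44 in TAKI livers and -1.07 to 0.85 in WT livers. Their median difference was 0.26 in TEKI minus TAKI. Their part in the Mmp9 difference was not tested.

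Mmp12 and Mmp13 varied widely between animals of the same genotype. Mmp12, the macrophage elastase, had a range of 6.17 over the 13 livers, the widest of the tested members, and of 3.74 without TEKI replicate 3, where Adamts16 was widest at 5.28. It was at -2.91, -1.50 and -6.76 in TEKI livers, -4.33, -1.01, -2.62, -0.59 and -2.21 in TAKI livers, and -2.06, -1.84, -1.27, -2.45 and -3.81 in WT livers, and it was well above background on all arrays but that of TEKI replicate 3. In each genotype 1 liver was far below the others: TEKI replicate 3, TAKI replicate 1 and WT replicate 5. Mmp12 differed by -1.44 (SE 1.11, adjusted p = 0.647) in TEKI minus WT, 0.13 (SE 0.96, adjusted p = 0.972) in TAKI minus WT and -1.57 (SE 1.11, adjusted p = 0.643) in TEKI minus TAKI and passed the test in none.

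Mmp13, collagenase 3 and the main interstitial collagenase of rodents, is the neighbour of Mmp12 in the cluster and is described for that reason, a choice made after its values were seen. It was at -2.29, -1.23 and -4.12 in TEKI livers, -4.05, -1.74, -3.02, -0.75 and -2.37 in TAKI livers, and -2.66, -1.45, -1.27, -1.91 and -3.36 in WT livers, above background on all 13 arrays. The same 3 livers were lowest. The range was 3.37, and the differences were -0.41 in TEKI minus WT and -0.26 in TAKI minus WT.

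Lipid-associated macrophages are the Trem2-positive macrophages that gather around lipid in fatty liver. Of 12 markers of these cells 0 were called in any comparison. Their mean level relative to the WT mean ran from -1.43 to 0.22 in TEKI livers, -1.36 to 0.76 in TAKI livers and -0.82 to 0.43 in WT livers. Gpnmb, one of the markers, was at -1.91, -0.58 and -3.85 in TEKI livers, -4.13, 1.16, -1.87, 0.73 and 0.01 in TAKI livers, and -0.07, 0.35, 0.71, 0.29 and -1.52 in WT livers. It was lowest in TAKI replicate 1, TEKI replicate 3, TEKI replicate 1 and TAKI replicate 3, and WT replicate 5 was the lowest WT liver.

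Levels over the 13 livers were set against the mean of 3 marker lists for 22 members, the 21 above background on all arrays and Mmp12, or 66 relations in all. The other lists, that of general macrophage and Kupffer cell markers among them, were not set against the members. P-values came from 100000 permutations of the livers. Mmp12 followed the lipid-associated macrophage markers with Pearson's r = 0.929 (permutation p = 1e-05, adjusted p = 0.00066) and Spearman's rho = 0.956 (permutation p = 1e-05, adjusted p = 0.00066). The smallest p these permutations can give is 1e-05. Mmp13 gave Pearson's r = 0.932 (permutation p = 3e-05, adjusted p = 0.00066) and Spearman's rho = 0.901 (permutation p = 9e-05, adjusted p = 0.00148). With TEKI replicate 3 and TAKI replicate 1 left out, r was 0.918 for Mmp12 and 0.851 for Mmp13 (n = 11). With each genotype centred on its own mean, r was 0.939 and 0.942 in that order. Levels and markers come from the same arrays and share their scaling, and slides held 1 to 4 arrays, too few for a value within slides. In whole liver RNA, fewer cells of a type and less RNA per cell cannot be told apart. The lists of matrix substrates, of TGFbeta and profibrotic signals and of neutrophil markers were also lowest in TEKI replicate 3, TAKI replicate 1 and WT replicate 5. The general macrophage list was lowest in TEKI replicate 3 but not next in the other 2. Whether the relation is particular to lipid-associated macrophages was not tested.

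Of the 22 members, 12 passed an adjusted p of 0.05 by Pearson's r against these macrophage markers, 11 with a positive r and 1 with a negative r, and 10 of the 12 passed by Spearman's rho too. Timp3 (adjusted p = 0.0723) and Adamts7 (adjusted p = 0.0541) did not pass by rho in these permutations. Timp2 gave Pearson's r = 0.872 (permutation p = 0.00011, adjusted p = 0.00145) and Spearman's rho = 0.918 (permutation p = 5e-05, adjusted p = 0.0011). Mmp2 gave r = 0.857, Mmp23 r = 0.849, Adamts2 r = 0.794 and Mmp14 r = 0.774. Without TEKI replicate 3 and TAKI replicate 1 these were 0.693 for Timp2, 0.62 for Mmp2, 0.701 for Mmp23, 0.666 for Adamts2 and 0.737 for Mmp14. Adamts15, Timp3, Adamts7 and Mmp11 had r of 0.647 to 0.701. Mmp19, a widely expressed secreted protease, ran the other way, with Pearson's r = -0.691 (permutation p = 0.00927, adjusted p = 0.0291) and Spearman's rho = -0.703 (permutation p = 0.00931, adjusted p = 0.0256). Mmp24 did so too, past the threshold by Spearman's rho alone, with Pearson's r = -0.588 (permutation p = 0.0336, adjusted p = 0.0671) and Spearman's rho = -0.709 (permutation p = 0.00824, adjusted p = 0.0236).

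Against 13 markers of stellate cells and myofibroblasts, 5 of 22 passed by both measures. Mmp23 gave Pearson's r = 0.795 (permutation p = 0.00096, adjusted p = 0.00634) and Spearman's rho = 0.791 (permutation p = 0.0018, adjusted p = 0.0108). Mmp2 had r = 0.752, Timp3 r = 0.705, Adamts2 r = 0.69 and Mmp19 r = -0.739. Timp1, set against these markers by its brightest probe alone, did not pass there (r = 0.429). Against 12 hepatocyte markers 11 of 22 passed by Pearson's r, 9 of them by Spearman's rho too (not Adamts1 and Timp3), 10 with a negative r, led by Mmp12 (r = -0.954) and Mmp13 (r = -0.877), and 1 with a positive r, Mmp19 (r = 0.701).

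**Figure D3:**
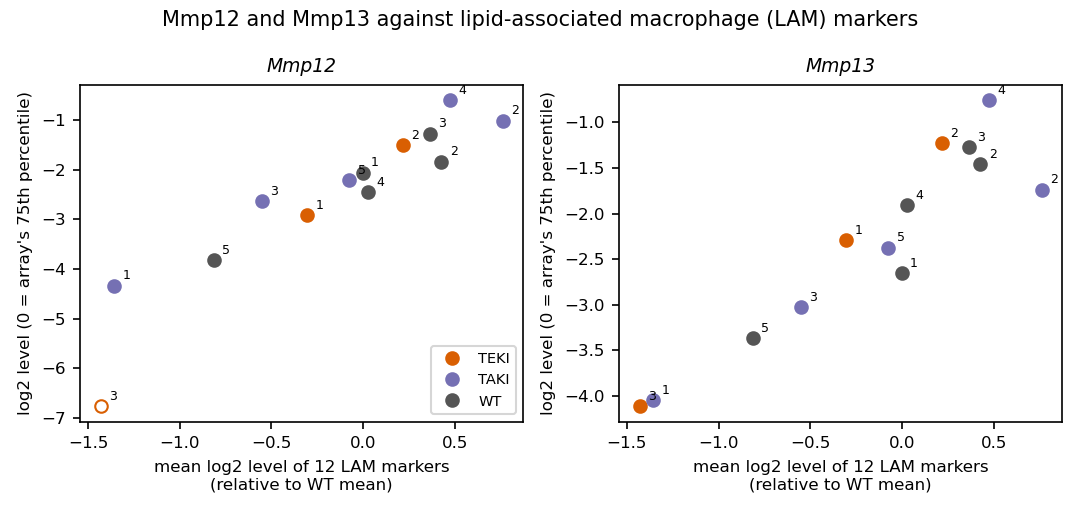
Log2 level of Mmp12 (left) and Mmp13 (right) against the mean log2 level of 12 lipid-associated macrophage markers relative to the WT mean, 1 point per liver, coloured by genotype and numbered by replicate; the open circle was not well above background. Points of all 3 genotypes fall along 1 rising band, from TEKI replicate 3 and TAKI replicate 1 at the lower left to TAKI replicate 4 at the upper right.

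Mmp8, the neutrophil collagenase, averaged -4.86 ± 0.63 in TEKI livers, -5.57 ± 1.10 in TAKI livers and -4.92 ± 1.02 in WT livers (SD, n = 3, 5 and 5) and was above background on 8 arrays. Its differences were 0.06 in TEKI minus WT and -0.65 in TAKI minus WT.

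The stromelysins cut proteoglycans and activate other Mmp precursors. Mmp10, stromelysin 2, was at -2.87, -5.21 and -5.32 in TEKI livers, -4.12, -3.85, -3.74, -4.12 and -3.83 in TAKI livers, and -6.19, -4.93, -5.86, -5.29 and -5.46 in WT livers. It was well above background on 1 of 3 TEKI arrays, 5 of 5 TAKI arrays and 2 of 5 WT arrays. The 5 TAKI livers lay close together and above all 5 WT livers, and TEKI replicate 1 stood far above the other 2 TEKI livers. The difference was 1.61 (SE 0.41, unadjusted p = 0.00217, adjusted p = 0.0643) in TAKI minus WT. It passed in the fit without TEKI replicate 1, where more genes were called in all, at 1.61 (adjusted p = 0.00141). The direct comparison of the knock-ins passed there too, at -1.33 (adjusted p = 0.0171) in TEKI minus TAKI against -0.54 with all arrays.

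Mmp10 lies in row 81. The 364 other genes of level class 1 within 20 rows had a median difference of 0.70 in TAKI minus WT, and with position taken out Mmp10 differed by 0.85 (adjusted p = 0.0606). With background handled by normexp, it differed by 0.14 (adjusted p = 0.638). In TEKI minus WT it differed by 1.08 (SE 0.48, unadjusted p = 0.044, adjusted p = 0.429), and by 0.28 (adjusted p = 0.927) without TEKI replicate 1.

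Mmp3, stromelysin 1 and a neighbour of Mmp10, was above background on 6 arrays and had a range of 4.03. It was at -4.39, -6.37 and -7.13 in TEKI livers, -4.12, -6.33, -7.70, -6.03 and -5.78 in TAKI livers, and -6.87, -5.69, -6.56, -8.15 and -5.19 in WT livers. High and low livers occurred in each genotype, and the difference was 0.53 (SE 0.85, adjusted p = 0.869) in TEKI minus WT and 0.50 (SE 0.73, adjusted p = 0.835) in TAKI minus WT. Mmp11, stromelysin 3, differed by -0.15 and -0.17 in these comparisons, and Mmp19 by 0.10 and -0.07. Mmp7, matrilysin, known from bile duct epithelium, averaged -3.44 ± 0.27 in TEKI livers, -3.96 ± 0.91 in TAKI livers and -3.58 ± 0.20 in WT livers, with differences of 0.14 and -0.38. Mmp28, epilysin, differed by 0.81 (adjusted p = 0.623) and 0.53 (adjusted p = 0.721). Its probe was above background on 2 of 3 TEKI arrays, 5 of 5 TAKI arrays and 1 of 5 WT arrays. Genes of level class 1 within 20 rows of it had median differences of 0.81 and 0.49, near its own.

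**Figure D4:**
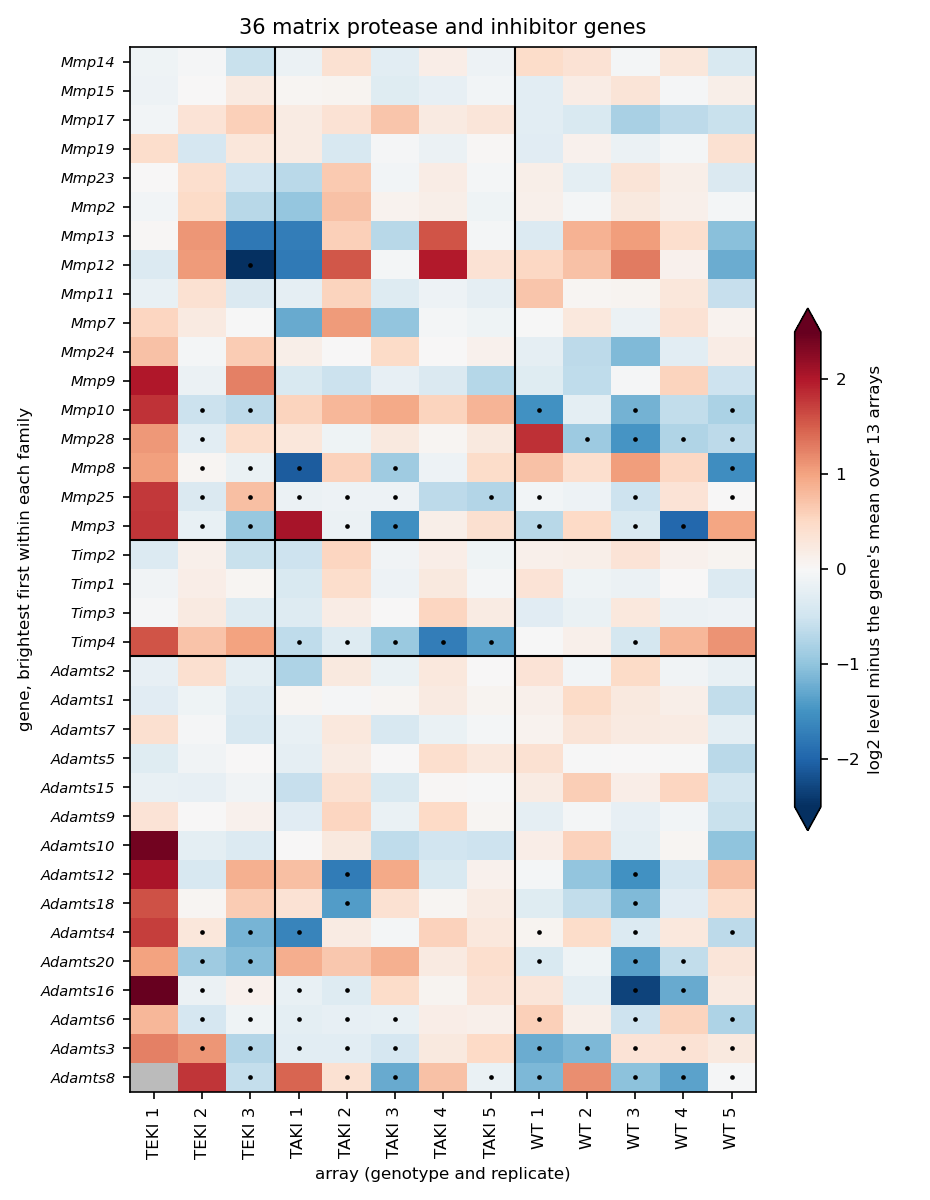
Log2 level of each of the 36 tested genes minus its mean over the 13 arrays (colour, from -2.5 in dark blue to 2.5 in dark red), with Mmp, Timp and Adamts genes in blocks from top to bottom and TEKI, TAKI and WT arrays from left to right. Black dots mark arrays where the probe was not well above background and grey a spot left out. TEKI replicate 1 is red for most dim genes, Mmp12 and Mmp13 vary together in all 3 genotypes, and the bright genes are pale.

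Adamts2 removes the amino-terminal propeptide of fibrillar procollagens and gave the brightest Adamts probe. It was at 1.67, 2.28 and 1.62 in TEKI livers, 1.10, 2.12, 1.70, 2.14 and 1.88 in TAKI livers, and 2.21, 1.81, 2.34, 1.78 and 1.69 in WT livers. TAKI replicate 1 was lowest and WT replicate 3 highest, and the groups overlapped. The difference was -0.11 (95% interval -0.67 to 0.45, adjusted p = 0.916) in TEKI minus WT and -0.18 (95% interval -0.66 to 0.31, adjusted p = 0.797) in TAKI minus WT. Dimmer Adamts2 probes gave -0.21 and 0.54 in TEKI minus WT and -0.23 and 0.55 in TAKI minus WT. Adamts3, which processes collagen II and pro-VEGF-C, had 2 probes that passed the filter on dim probes. Both were well above background on no WT array and on 1 of 3 TEKI arrays. Set against the WT limit, the TEKI mean was 1.06-fold higher by the brighter probe (adjusted p = 0.55) and 2.11-fold higher by the other. These are not firm bounds, because the TEKI mean includes arrays not above background. The other probe was at -1.75, -6.53 and -5.53 in TEKI livers, so its fold rests largely on TEKI replicate 1. Genes of level class 1 within 20 rows of the brighter probe had a median difference of 0.75 in TEKI minus WT. TAKI minus WT gave no fold.

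The proteases of aggrecan and versican include Adamts1, Adamts4, Adamts5, Adamts8, Adamts9, Adamts15 and Adamts20. Adamts1, an early response gene in many cells, averaged -0.34 ± 0.12 in TEKI livers, -0.03 ± 0.09 in TAKI livers and -0.02 ± 0.41 in WT livers (SD, n = 3, 5 and 5). All 3 TEKI livers were below all 5 TAKI livers, by -0.32 (SE 0.19, adjusted p = 0.583), and the other probe gave -0.10. Adamts1 differed by -0.33 in TEKI minus WT and -0.01 in TAKI minus WT, and its other probe by -0.34 and -0.24.

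Adamts5 differed by -0.07 in TEKI minus WT and 0.19 in TAKI minus WT, and Adamts15 by -0.38 and -0.33. Adamts8, with 12 arrays because the spot of TEKI replicate 1 was flagged as an outlier, differed by 1.06 and 0.70. Adamts9 differed by 0.37 (SE 0.20, unadjusted p = 0.0886, adjusted p = 0.49) in TEKI minus WT, with the 3 TEKI livers above the 5 WT livers, and by 0.34 (SE 0.17, unadjusted p = 0.0737, adjusted p = 0.414) in TAKI minus WT. A second Adamts9 probe, above background on 4 arrays, gave 0.84 in TAKI minus WT and was not well above background on any TEKI array.

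Adamts4, aggrecanase 1, was at -3.43, -4.87 and -6.31 in TEKI livers, -6.80, -4.94, -5.21, -4.57 and -4.89 in TAKI livers, and -5.09, -4.69, -5.50, -4.89 and -5.80 in WT livers. TEKI replicate 1 was highest and TAKI replicate 1 lowest. The range was 3.38 over 13 livers and 2.23 without TEKI replicate 1, and the difference was 0.33 (SE 0.61, adjusted p = 0.89) in TEKI minus WT and -0.09 (SE 0.53, adjusted p = 0.964) in TAKI minus WT.

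Adamts20 was measured by 3 probes that disagreed. The brightest, in row 32, was at -4.28, -6.17 and -6.35 in TEKI livers, -4.38, -4.61, -4.39, -5.05 and -4.85 in TAKI livers, and -5.66, -5.39, -6.63, -5.90 and -4.98 in WT livers, with TEKI replicate 1 highest and the 5 TAKI livers within the upper part of the range. It differed by 1.05 (SE 0.39, unadjusted p = 0.0207, adjusted p = 0.223) in TAKI minus WT. Genes of level class 1 within 20 rows of it had a median difference of 0.74 there. With position taken out it differed by 0.33 (adjusted p = 0.609). The other probe shown above, in row 469, was at -2.85, -4.44 and -4.75 in TEKI livers, -6.80, -7.35, -7.61, -8.54 and -6.07 in TAKI livers, and -4.26, -4.80, -5.31, -5.06 and -4.24 in WT livers, and there the TAKI livers were the lowest, on 0 of 5 arrays above background. Since no TAKI array measured it above background, only bounds can be given at this scaling, 2.1-fold lower in TAKI than in WT and 3.48-fold higher in TEKI than in TAKI. This probe was above background on 4 of 5 WT and 2 of 3 TEKI arrays. The bounds use the means of all and do not allow for the spread between livers. Genes of level class 1 within 20 rows of row 473 had a median difference of 1.11 in TEKI minus TAKI, which the bounds leave in. The third, in row 468, differed by -0.99 in TAKI minus WT and 2.60 in TEKI minus TAKI. The mean of all 3 probes differed by -0.83 in TAKI minus WT (adjusted p = 0.235), and with normexp the brightest probe differed by -0.86 (adjusted p = 0.0124). The direction for this gene therefore depends on the probe and on how background is handled, and the size for the brightest probe changed with position taken out.

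**Figure D5:**
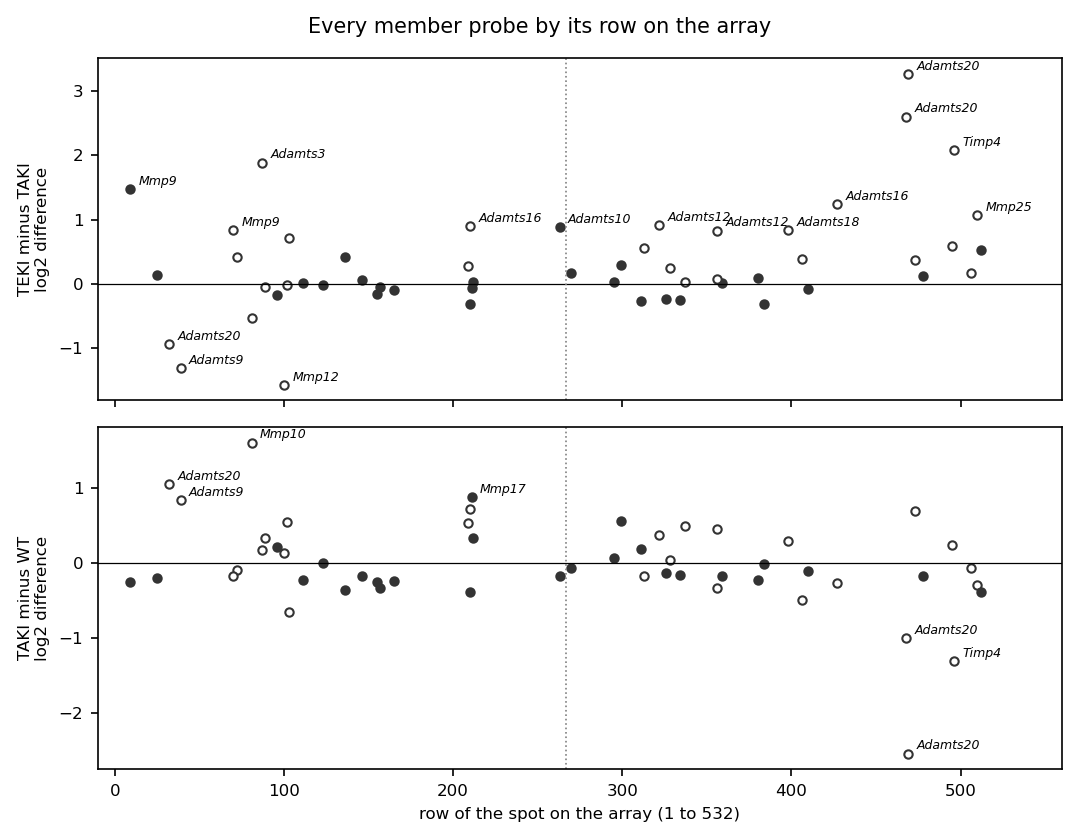
Log2 difference of every member probe above background on at least 3 arrays against the row of its spot, for TEKI minus TAKI (top) and TAKI minus WT (bottom); open symbols were not above background on all 13 arrays and names are given from 0.8 upward in size. The 3 Adamts20 probes lie at opposite ends of the array and on opposite sides of 0, and the dotted line divides rows 1 to 266 from rows 267 to 532.

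Several Adamts genes of low signal were led by TEKI replicate 1. Adamts16, known from kidney and gonad, was at -2.40, -5.52 and -5.26 in TEKI livers, -5.55, -5.70, -4.91, -5.30 and -5.0 in TAKI livers, and -5.06, -5.62, -7.68, -6.62 and -5.13 in WT livers. TEKI replicate 1 was far above the rest and WT replicates 3 and 4 were lowest. The difference was 1.63 (SE 0.72, unadjusted p = 0.0437, adjusted p = 0.429) in TEKI minus WT and 0.63 (adjusted p = 0.925) without TEKI replicate 1. The range was 5.28, and 2.77 without that array. Its other probe gave 0.97 in TEKI minus WT and -0.27 in TAKI minus WT, where the first gave 0.73.

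Adamts18 was at -2.93, -4.46 and -3.89 in TEKI livers, -4.16, -5.91, -4.14, -4.47 and -4.30 in TAKI livers, and -4.82, -5.14, -5.62, -4.80 and -4.08 in WT livers. The TEKI livers were the highest group, but WT replicate 5 and 3 TAKI livers were above TEKI replicate 2. The difference was 1.13 (SE 0.46, unadjusted p = 0.0314, adjusted p = 0.413) in TEKI minus WT and 0.72 (adjusted p = 0.91) without TEKI replicate 1. In TAKI minus WT it was 0.30.

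Adamts12, which with Adamts7 cuts cartilage oligomeric matrix protein, was at -2.04, -4.49 and -3.19 in TEKI livers, -3.34, -5.84, -3.14, -4.47 and -3.97 in TAKI livers, and -4.13, -5.07, -5.60, -4.50 and -3.34 in WT livers. TEKI replicate 1 was highest and TAKI replicate 2 lowest. The difference was 1.29 (SE 0.70, adjusted p = 0.491) in TEKI minus WT, 0.69 (adjusted p = 0.927) without TEKI replicate 1, and 0.38 in TAKI minus WT. Its other probes gave 1.29 and 0.28 in TEKI minus WT and 0.46 and 0.33 in TAKI minus WT. Adamts7 differed by -0.13 and -0.23, and its second probe by -0.70 and -0.39.

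Adamts10, which binds fibrillin, was at -1.59, -4.24 and -4.35 in TEKI livers, -4.0, -3.75, -4.63, -4.47 and -4.51 in TAKI livers, and -3.84, -3.43, -4.25, -3.96 and -5.0 in WT livers. TEKI replicate 1 stood far above every other liver, and without it the range fell to 1.57, against 3.41 with all 13. The difference was 0.70 (SE 0.56, adjusted p = 0.657) in TEKI minus WT, and -0.20 (adjusted p = 0.954) without that array. It was -0.18 in TAKI minus WT, and the second probe gave 0.39 and -0.17. Adamts6, also a fibrillin-binding protease, differed by 0.10 and -0.07.

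Over all members, 15 of 36 were highest on TEKI replicate 1. This was so for 10 of the 15 not above background on every array, and for 5 of the 21 that were. Of the 14 genes with more than 1 probe past the background limit, the probes shared a direction for 8 in TAKI minus WT, for 10 in TEKI minus WT and for 7 in TEKI minus TAKI.

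The wider pathway was described by lists. Of 13 genes of the plasmin system, which activates Mmp precursors, 0 were called in any comparison, with a median difference of -0.08 in TEKI minus WT and 0.03 in TAKI minus WT. Of 19 other regulators of these proteases 0 were called, with medians of -0.01 and 0.05. Of 26 matrix substrates, collagens among them, 0 were called, with medians of -0.13 and 0.05. Of 17 TGFbeta and profibrotic signals 0 were called, with medians of -0.15 and 0.10. Of 11 ADAMTS-like and related glycoproteins 0 were called, with medians of 0.19 and 0.24. Over all genes the medians were 0.08 in TEKI minus WT and 0.00 in TAKI minus WT. In TEKI minus TAKI the medians of these lists were, in the same order, -0.15, 0.06, -0.16, -0.26 and 0.07, against 0.07 over all genes. Differences there were above 0 for 5 of 13, 12 of 19, 8 of 26, 4 of 17 and 7 of 11, where 61.1% of all genes were. Of all genes 2.77% were called in TAKI minus WT, 0.0049% in TEKI minus WT and 3.4% in TEKI minus TAKI.

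Of 9 ADAM proteases, membrane relatives of the Adamts family, 1 was called: Adam19 was higher by 1.82 (SE 0.38, adjusted p = 0.0205, row 477) in TEKI minus TAKI. It differed by 1.52 when TEKI replicate 1 was left out (adjusted p = 0.064) and was not called. Its row is near those of Timp4 and of the lower Adamts20 probes. Of 13 stellate cell and myofibroblast markers and of 13 macrophage and Kupffer cell markers, 0 were called in any comparison.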

How the data were processed

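Liver RNA of 13 mice was hybridised to 1-colour Agilent arrays and scanned with Agilent Feature Extraction 9.5, per the submitters' processing notes. The deposited processed signal intensity is background-corrected but not scaled between arrays (per the file headers). A table of values deposited beside the scanner output was identical to it at every spot. Here spots flagged as outliers were dropped, log2 signals of a probe's spots averaged and each array's 75th percentile subtracted. The brightest probe of each gene was kept if well above background on at least 3 arrays. The 3 genotypes entered 1 limma fit (3.58.1, R 4.3.3) with eBayes and no covariates, tested on simulated data. Alternatives covered scaling, background, filter, probe choice, slide, array position, replicate block and leaving out each array. The number of arrays limits precision. Probe positions are those of the files (mm7); promoters come from RefSeq (GRCm38.p6).

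Members and lists were chosen with earlier results of these data known, and support nothing by themselves. Values are given for inhibitors, members with an unadjusted p under 0.05, the 6 of brightest signal and the 6 of widest range; second probes are given for genes with several. Of the 15 gene lists only members past the threshold are named, apart from Alb and Gpnmb, whose levels are given though they passed in no comparison. One result of the lymphocyte list is not reported here. Probes were named through RefSeq accessions, symbols and synonyms, and members by the array's own names. Correlations used Python 3.11.15.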

Additional observations from a re-analysis of the deposited data

Results flagged for a closer look

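Values of 36 members in TAKI and in WT livers made 72 groups of 5, in which the gap between an extreme liver and its nearest neighbour was set against the range of the group (Dixon's criterion). Chance marks about 1 in 20 such groups, and 7 of 72 were marked; TEKI, with 3 livers, was not examined. Mmp17 was 0.52 in TAKI replicate 3, against 0.03 to 0.17 in the other 4 TAKI livers. Mmp11 was -2.03 in TAKI replicate 2, against -2.90 to -2.70. Adamts18 was -5.91 in TAKI replicate 2, not well above background, against -4.47 to -4.14. Adamts4 was -6.80 in TAKI replicate 1, also not well above background, against -5.21 to -4.57. Timp2 was 2.76 in WT replicate 3, against 2.50 to 2.56 in the other 4 WT livers. Mmp28 was -3.17 in WT replicate 1, the single WT array where it was well above background, against -6.47 to -5.66. Mmp8 was -6.70 in WT replicate 5, not well above background, against -4.74 to -4.10. Without TAKI replicate 3, Mmp17 differed by 0.80 in TAKI minus WT (adjusted p = 0.0247) and stayed called.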

How the results depend on the processing

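Mmp17 in TAKI minus WT and Timp4 in TEKI minus TAKI kept their direction under the 25 and 24 alternatives that give 1 value per gene (0.26 to 1.10 and 0.96 to 2.28), though the second Mmp17 probe alone gave -0.36. Mmp17 missed the threshold under 2 of 25 alternatives (adjusted p 0.00278 to 0.411) and Timp4 under 2 of 24 (0.00217 to 0.151). With all arrays and the settings of the report, calls numbered 564 in TAKI minus WT (383 higher), 1 in TEKI minus WT and 694 in TEKI minus TAKI (501 higher), with 1, 0 and 1 called members and 2, 2 and 3 members with separate groups, in that order of comparison. Scaling to each array's median gave 968 called genes in TAKI minus WT and 2 in TEKI minus WT, 2 called members in TAKI minus WT and 3 in TEKI minus TAKI and 0 members with separate groups in TEKI minus WT. Leaving the deposited values unscaled gave 1015 called genes in TAKI minus WT, 2 called members in TAKI minus WT and 4 members with separate groups in TAKI minus WT. Quantile normalization gave 880 called genes in TAKI minus WT and 5 in TEKI minus WT and 1131 in TEKI minus TAKI, 4 called members in TAKI minus WT and 3 in TEKI minus TAKI and 4 members with separate groups in TAKI minus WT and 1 in TEKI minus WT. Normexp background correction gave 0 called genes in TEKI minus WT and 4124 in TEKI minus TAKI, 3 called members in TAKI minus WT and 13 in TEKI minus TAKI and 5 members with separate groups in TAKI minus WT and 10 in TEKI minus TAKI. Dropping the filter on dim probes gave 2 called genes in TEKI minus WT and 5 members with separate groups in TEKI minus WT and 6 in TEKI minus TAKI. Requiring signal above background on all 13 arrays gave 238 called genes in TAKI minus WT and 0 in TEKI minus WT and 295 in TEKI minus TAKI, 0 called members in TEKI minus TAKI and 1 member with separate groups in TAKI minus WT. Averaging all probes of a gene gave 0 called members in TAKI minus WT and 2 in TEKI minus TAKI. Testing every probe alone gave 2 called members in TAKI minus WT and 2 in TEKI minus TAKI. Fitting only the genotypes compared gave 1321 called genes in TAKI minus WT and 2 called members in TAKI minus WT. Slide as a fixed block gave 10 called genes in TEKI minus WT. Using only the slide with TEKI and WT left WT replicate 5 as the single WT array. Separate groups there mean only that 1 liver lay outside 3 others, so no counts are given. Mmp17 differed by 0.85 in TEKI minus WT on that slide. Centring by position on the array gave 4 called genes in TEKI minus WT, 2 called members in TAKI minus WT and 5 members with separate groups in TEKI minus TAKI. The replicate block gave 339 called genes in TAKI minus WT and 0 in TEKI minus WT and 0 called members in TEKI minus TAKI. The 13 members called in TEKI minus TAKI with normexp were all higher in TEKI. Of the calls in TAKI minus WT, 550 were higher with median scaling, 856 unscaled, 525 with quantile normalization, 141 with normexp and 252 of 502 with position centred; in TEKI minus TAKI these were 535 of 1017, 345 of 606, 495, 3972 and 375 of 669. Median scaling moved the median of all genes to -0.15 in TAKI minus WT, -0.33 in TEKI minus WT and -0.19 in TEKI minus TAKI, against 0.00, 0.08 and 0.07.

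Adamts20 reversed in TAKI minus WT, to -0.86 with normexp and -0.83 with all probes averaged. Mmp25 reversed in TEKI minus TAKI, to -0.16 with position centred. The cause was not tested. Leaving out 1 array at a time, called genes ranged from 286 (without TAKI replicate 5) to 1295 (without TEKI replicate 1) in TAKI minus WT, from 1 to 100 (without TEKI replicate 2) in TEKI minus WT, and from 389 (without TEKI replicate 3) to 1070 (without TEKI replicate 1) in TEKI minus TAKI. Called members ranged from 1 to 4, from 0 to 1 and from 1 to 3 in the same order, and members with separate groups from 2 to 4, from 2 to 10 and from 3 to 8 (highest without WT replicate 5, TEKI replicate 2 and TEKI replicate 2). The 1 called in TEKI minus WT without TEKI replicate 2 was Mmp9.

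Same-numbered livers had deviations that correlated between -0.232 and 0.323, over 0.1 in 5 of 11 pairs, and 2 of 13 livers correlated best with their own number, so the numbers were not taken as pairing. Under the replicate block Mmp17 gave 0.89 in TAKI minus WT (adjusted p = 0.05, still called) and Timp4 2.13 in TEKI minus TAKI (adjusted p = 0.0639). Of the 36 tested members 15 were not above background on every array, and their values are limited by signal over background.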

Other observations

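Other cell types that a liver sample can hold were measured with further marker lists. Among the markers of T, B and NK lymphocytes, Cd2, a surface receptor of T and NK cells, was higher in TAKI than in WT by 1.05 (SE 0.14, adjusted p = 0.00274, row 207). The median difference of the 19 tested markers was 0.42 in TEKI minus WT and 0.42 in TAKI minus WT. Cd2 lies among the rows that held nearly all genes called higher in TAKI. Of 12 tested pancreatic acinar markers, Rnase1, a secreted ribonuclease, differed by 3.0 (SE 0.49, adjusted p = 0.00572, row 460) in TEKI minus TAKI and by -2.10 (SE 0.42, adjusted p = 0.022, row 460) in TAKI minus WT. Zg16, a zymogen granule protein, differed by 2.74 (SE 0.48, adjusted p = 0.00827, row 450) and -1.92 (SE 0.42, adjusted p = 0.0322, row 450). Without TEKI replicate 1 the TEKI minus TAKI differences were 2.93 for Rnase1 (adjusted p = 0.0133) and 2.32 for Zg16 (adjusted p = 0.0221). Cpb1, pancreatic carboxypeptidase B, was higher in TAKI than in WT by 1.68 (SE 0.38, adjusted p = 0.0404, row 173). Rnase1 and Zg16 lie in rows 267 to 532, which held 485 of the 501 genes called higher in TEKI minus TAKI. Those rows also held 179 of the 181 called lower in TAKI minus WT. Cpb1 lies in the other rows, with 376 of the 383 called higher in TAKI minus WT. The differences of these 3 genes are given without position taken out. In TEKI minus WT 0 of these 12 were called by limma, 5 had an unadjusted p under 0.05, all higher, and 11 of 12 differences were above 0, with a median of 0.91 against 0.08 over all genes. Of all genes 11.4% had such a p, 10.2% higher, and 63.4% of differences were above 0. The median over all genes of level class 1 was 0.71. The mean level of the 12 relative to the WT mean was 1.49, 0.35 and 0.90 in TEKI livers and -0.71 to 0.40 in WT livers. No value without TEKI replicate 1 is given for this comparison. Of 14 liver endothelial, 10 cholangiocyte and 12 hepatocyte markers, 0 were called in any comparison.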
